A study of Mus musculus with 8 samples.

Results

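The 8 genes described here, Fgf4, Fgfr1, Fgfr2, Dusp6, Spry2, Spry4, Etv4 and Etv5, belong to the FGF and ERK signalling pathway. The MEK inhibitor in the culture medium acts on the MEK step of this pathway. The 8 genes were taken as a list of names, chosen with earlier results of these data known. Every accessible region touching a gene or the 50 kb on either side of it was assigned to that gene. This gave 89 of the 76872 regions in the series. None of the 89 fell in the windows of more than 1 of the 8 genes.

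The regions came from ATAC-seq, which uses the Tn5 transposase to tag open DNA. The cells were mouse iPSCs (induced pluripotent stem cells) of 1 clonal line, which carries FUCCI2, a pair of fluorescent reporters of cell cycle phase. All 4 groups shared a layer of irradiated feeder cells and medium with FBS, LIF, a MEK inhibitor and a GSK3 inhibitor. No group was thus without the MEK inhibitor, and no measure of pathway activity was analysed. The mitotic group was shaken off after 6 hours of nocodazole, a spindle poison, at 200 ng/ml. The released groups had the same arrest and then 1 or 3 hours in new medium, and the asynchronous group had no nocodazole. Each group had 2 libraries, from 50000 cells each. The data analysed were 1 list of region positions for the whole series, with no count, height or library attached to a region. Which libraries a region came from is not recorded, depth per library is unknown, and mitotic, released and asynchronous cells could not be compared. As a check of the cell label, 5 of 6 pluripotency markers and 1 of 6 fibroblast markers had a region within 1 kb of an outer limit. The share over all protein-coding genes was 62.0%, so the pluripotency count alone says little about the cells. The part of feeder cells in the regions below was not tested.

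FGF ligands bind receptor tyrosine kinases, which act through adaptors and RAS on the kinases RAF, MEK and ERK. ERK activity induces Etv4 and Etv5, ETS-family transcription factors, together with its own brakes: Dusp6, a phosphatase that inactivates ERK, and the Sprouty proteins Spry2 and Spry4, which dampen receptor signalling. In mouse pluripotent cells Fgf4 is the main ligand made by the cells themselves. Its signal favours exit from the naive state, and blocking MEK is used to hold cells in that state.

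All 8 genes had an accessible region within 1 kb of an outer limit, against 62.0% of the 21887 protein-coding genes. Regions lay at both limits in 2 of the 8, Fgf4 and Fgfr1, against 8.47% of all genes. Windows differ in length with the gene, so the number of regions was also taken per 100 kb of window. On that scale 6 of the 8 lay above the median of all protein-coding genes, 4.68 regions per 100 kb. The 8 genes ranged from 3.91 regions per 100 kb at Fgfr2 to 14.4 at Fgf4, with a median of 9.07. In regions per window, their median was 10, with a range of 5 to 17, and that of all genes was 7, with quartiles of 3 and 10. The windows of the 8 touched a median of 1 other protein-coding gene, against 3 over all genes. No test was made of these differences, and the part of gene crowding in them was not tested.

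**Figure D1:**
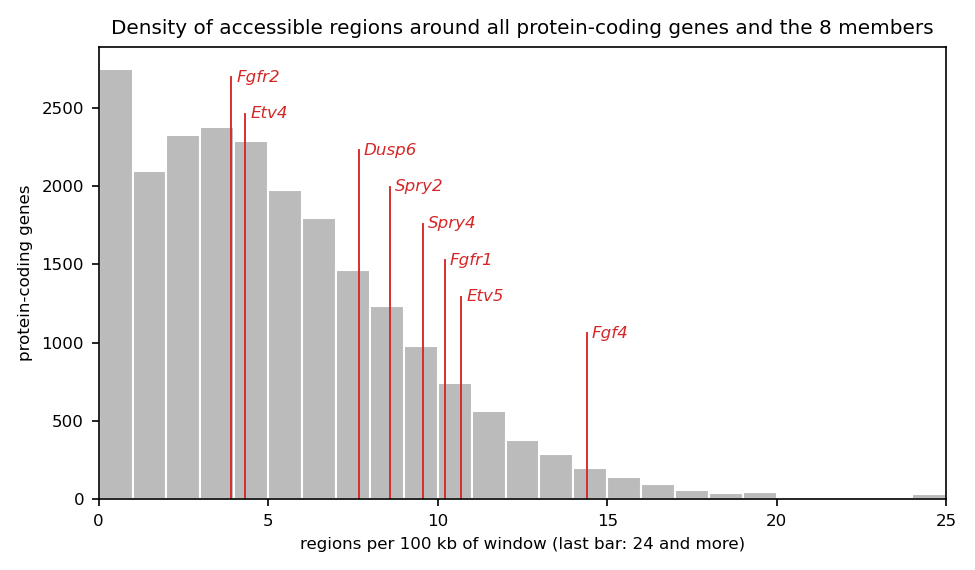
Number of protein-coding genes (bars, vertical axis) by regions per 100 kb of window (horizontal axis), with the 8 genes as red lines whose heights only separate the names. Fgfr2 and Etv4, at 3.91 and 4.33, lie below the median of 4.68, and Fgf4, at 14.4, lies in the upper tail.

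The start sites of 5 of the 8 genes could be matched to promoter sequences, and the cover of these promoters differed. A promoter window here runs from 250 bases before the start to 50 bases from the start on. Regions touched this window in 4 of the 5 genes, against 57.8% of the 17492 protein-coding genes with such a window. At Fgf4, Dusp6 and the outer start of Etv5 the region spanned the start and all 250 upstream bases. The inner start of Etv5 had 183 of its 250 upstream bases in a region that ended 68 bp before the start. Spry2 was only grazed, with 15 of 250 bases in a region that lay upstream. Fgfr2 had none. The 250 upstream bases are printed because they show how these promoters differ in CpG content. Sequences are from RefSeq on GRCm38.p6, given 5′ to 3′ in the direction of transcription, and capitals mark each CpG.
Fgf4, chr7:144861136-144861385, plus strand: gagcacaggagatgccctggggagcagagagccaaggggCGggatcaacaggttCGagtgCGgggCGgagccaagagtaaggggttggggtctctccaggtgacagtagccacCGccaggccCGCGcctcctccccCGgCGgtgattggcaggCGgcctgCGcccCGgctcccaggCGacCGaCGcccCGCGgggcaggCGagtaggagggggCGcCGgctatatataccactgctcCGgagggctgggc
Dusp6, chr10:99262981-99263230, plus strand: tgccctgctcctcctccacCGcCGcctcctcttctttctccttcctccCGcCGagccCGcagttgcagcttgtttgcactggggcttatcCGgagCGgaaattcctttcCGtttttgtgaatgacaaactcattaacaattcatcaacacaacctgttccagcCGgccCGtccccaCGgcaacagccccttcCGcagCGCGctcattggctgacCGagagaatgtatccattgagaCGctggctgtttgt
Etv5 outer start, chr16:22439571-22439820, minus strand: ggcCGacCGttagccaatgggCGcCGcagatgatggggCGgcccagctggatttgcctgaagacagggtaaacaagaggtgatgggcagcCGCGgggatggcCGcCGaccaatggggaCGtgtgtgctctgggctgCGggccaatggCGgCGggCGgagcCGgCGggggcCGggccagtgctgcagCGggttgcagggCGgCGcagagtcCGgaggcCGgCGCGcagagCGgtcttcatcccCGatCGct
Spry2, chr14:105896820-105897069, minus strand: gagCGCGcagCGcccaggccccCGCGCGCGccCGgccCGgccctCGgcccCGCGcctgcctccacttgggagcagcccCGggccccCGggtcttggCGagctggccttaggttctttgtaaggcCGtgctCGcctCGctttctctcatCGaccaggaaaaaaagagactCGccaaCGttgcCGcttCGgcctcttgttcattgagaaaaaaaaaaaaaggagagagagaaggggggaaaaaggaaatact
Fgfr2, chr7:130266809-130267058, minus strand: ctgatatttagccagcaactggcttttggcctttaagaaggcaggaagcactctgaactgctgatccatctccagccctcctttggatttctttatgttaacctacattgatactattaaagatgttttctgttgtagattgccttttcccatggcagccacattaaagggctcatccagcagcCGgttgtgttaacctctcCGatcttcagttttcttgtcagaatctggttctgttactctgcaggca

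Fgfr2 stood apart from the others in the number of CpGs, with 2 in its 250 bases and a GC content of 44%. Fgf4 had 21 CpGs, Dusp6 16, Spry2 23 and the outer start of Etv5 27, with GC contents of 71.2%, 56.4%, 62.4% and 71.2%. The inner start of Etv5, not printed, had 18. Among all 32851 promoter windows of any gene type, a region touched the 250 upstream bases of 3.88% of those with 0 to 2 CpGs there, 16.2% with 3 to 6, 66.8% with 7 to 16 and 88.1% with 17 to 56. The untouched Fgfr2 window is thus like most windows of its CpG class, and Fgf4, Spry2 and both starts of Etv5 are of the class that is most often touched. These shares count any overlap and say nothing of full cover.

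Motif letters were searched on both strands of the same upstream bases. The GC box, GGGCGG, bound by Sp and KLF factors, occurred at Fgf4 (2 matches) and at the outer start of Etv5 (3 matches), and 32.7% of all windows hold it. Where a region touched the upstream bases the share was 61.9%, and elsewhere 12.4%. None of the 6 windows held the ETS letters CCGGAA (12% of all windows), the AP-1 letters TGANTCA (6.75%), the CRE letters TGACGTCA (1.55%), the E-box CACGTG (6.02%), the octamer ATGCAAAT (1.6%), the TATA letters TATAAA (12.4%) or the CArG box of serum response factor (1.47%). Only these letters were searched, so variant forms of a motif were not counted and may be present. Since only the GC box was found, no matches of different motifs overlapped.

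**Figure D2:**
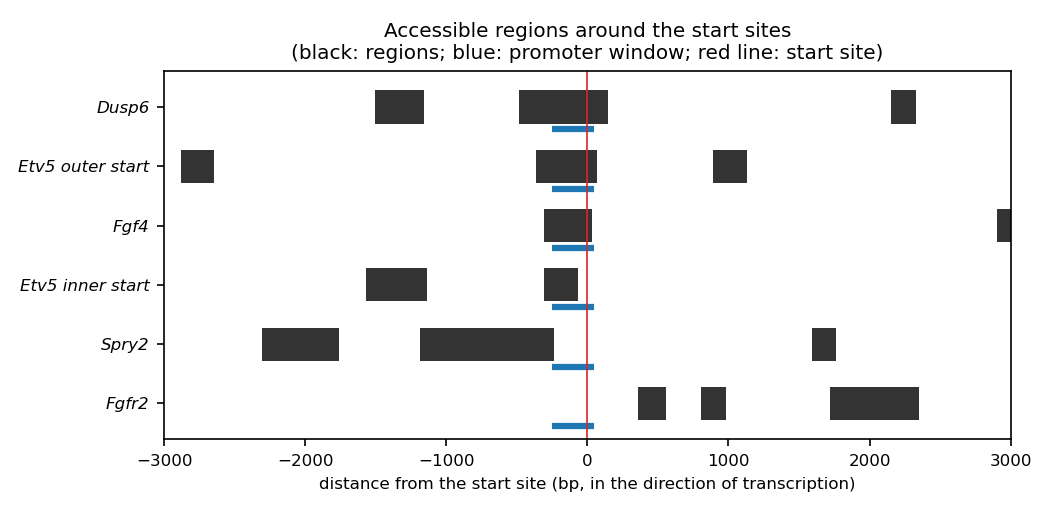
Accessible regions (black) within 3 kb of the 6 start sites (red line), against distance in bp in the direction of transcription, with the 300 bp promoter window in blue. Dusp6, Fgf4 and the outer start of Etv5 are spanned by a region, Spry2 has wide regions upstream only, and the 3 regions nearest to the Fgfr2 start lie inside the gene.

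Fgf4, the ligand, had the densest surroundings of the 8 genes. The gene spans 3.86 kb on chromosome 7, 144861386 to 144865245. Its window held 15 regions, or 14.4 per 100 kb, a density reached by 2.51% of protein-coding genes. As many regions were found for 7.96% of them, and for 5.7% of the 1280 genes within 20% of the length of Fgf4. As many distal regions, meaning 8 not within 1 kb of a limit of any protein-coding gene, were found for 18.8%. The region at its start was 335 bp wide, at 144861082 to 144861416. A second region in the gene, of 251 bp at 144864289 to 144864539, began 2.9 kb after the start and ended 0.706 kb before the far limit. As background, Sox2 and Oct4 act on Fgf4 through an enhancer near its far end. Whether that region is this enhancer was not tested. The widest region in the window, of 908 bp at 144857314 to 144858221, lay 3.17 kb upstream, and 5.69% of all regions are as wide. A region of 618 bp followed 1.9 kb downstream. Beyond these, the window reached the neighbouring ligand genes Fgf3 and Fgf15, each with 2 regions at its limits, and ended in a region of 690 bp over the promoter window of LTO1. Since the windows overlap, 12 of the 15 regions were also in the window of Fgf15 and 10 in that of Fgf3. With regions kept only for their nearest protein-coding gene, Fgf4 had 5.

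The receptor genes differed in density, with 10.2 regions per 100 kb at Fgfr1 and 3.91 at Fgfr2. Fgfr1, on chromosome 8 at 25518759 to 25575718, had 16 regions in its window, 7 of them touching the gene. A wide region of 850 bp covered its lower limit, and a narrower one of 324 bp lay 0.442 kb inside its upper limit. The other 5 regions in the gene, of 83 to 391 bp, lay together in its middle, between 25536670 and 25548131. Of these, 4 touched the lncRNA gene Gm31288 as well. The widest region in the window, of 1009 bp, was at the lower limit of Nsd3, which encodes a histone methyltransferase, and one of 936 bp lay at the upper limit of Letm2.

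Fgfr2, on chromosome 7 at 130162451 to 130266808, was the longest of the 8 genes at 104.4 kb and had the lowest density. It had 8 regions, of which 7 touched the gene. Among the 1165 protein-coding genes within 20% of its length, the medians were 8 regions in the window and 3 touching the gene. Those near the start formed a group of 3 inside the gene, of 201, 177 and 633 bp, at 0.357, 0.804 and 1.72 kb from the start. The next 4 were farther into the gene, at 295, 145, 131 and 132 bp. A stretch of 66.7 kb, covering the downstream flank and the far end of the gene, held no region, and the upstream flank held a single region of 127 bp, 6.47 kb away. Regions covered 0.901% of the Fgfr2 window, against 3.78% at Fgfr1 and a median of 1.83% over all genes. With regions under 150 bp left out, Fgfr2 had 4 regions and Fgfr1 12. Fgfr1 is the shorter gene, at 57 kb.

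Dusp6, the ERK phosphatase gene, had its regions at the start and in a group downstream. The gene spans 4.26 kb on chromosome 10, 99263231 to 99267489, with no other protein-coding gene in its window. A region of 629 bp, at 99262747 to 99263375, spanned the start, one of 348 bp lay 1.16 kb upstream, and one of 177 bp lay inside the gene. A group of 5 regions followed between 19.3 and 30.9 kb downstream. The last of these, of 789 bp at 99298434 to 99299222, was the widest in the window and wider than the region at the start. Upstream of 99261724 no region was listed for the remaining 48.5 kb of the window.

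Of the Sprouty genes, Spry2 had wide regions on both sides and, like Dusp6, no protein-coding neighbour in its window. It spans 4.87 kb on chromosome 14, 105891947 to 105896819. Its widest region, of 949 bp at 105897055 to 105898003, began 236 bp upstream of the start, and a further one of 547 bp lay 1.76 kb upstream. Upstream at 23.7 kb lay a region of 585 bp, and downstream, between 30.7 and 40.3 kb, a group of 4 that included one of 854 bp. Inside the gene there was 1 region, of 171 bp. Both flanks held 4 regions, and no region lay in the 30.7 kb between the downstream group and the gene.

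Spry4, on chromosome 18 at 38586247 to 38601347, had the widest region of all 89. It was 1333 bp wide, at 38600832 to 38602164, and 0.805% of all regions are as wide. This region covered the upper limit of Spry4 and the lower limit of Arhgap26, which encodes a GTPase-activating protein and begins at 38601617, so it cannot be assigned to either gene alone. The 2 regions inside Spry4 were narrow, at 78 and 79 bp. A group of 5 regions of 185 to 323 bp lay between 7.82 and 43.4 kb below the gene. On the other side, 3 regions lay inside Arhgap26, of which one was 555 bp wide. With regions under 150 bp left out, the window held 7 of its 11 regions.

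**Figure D3:**
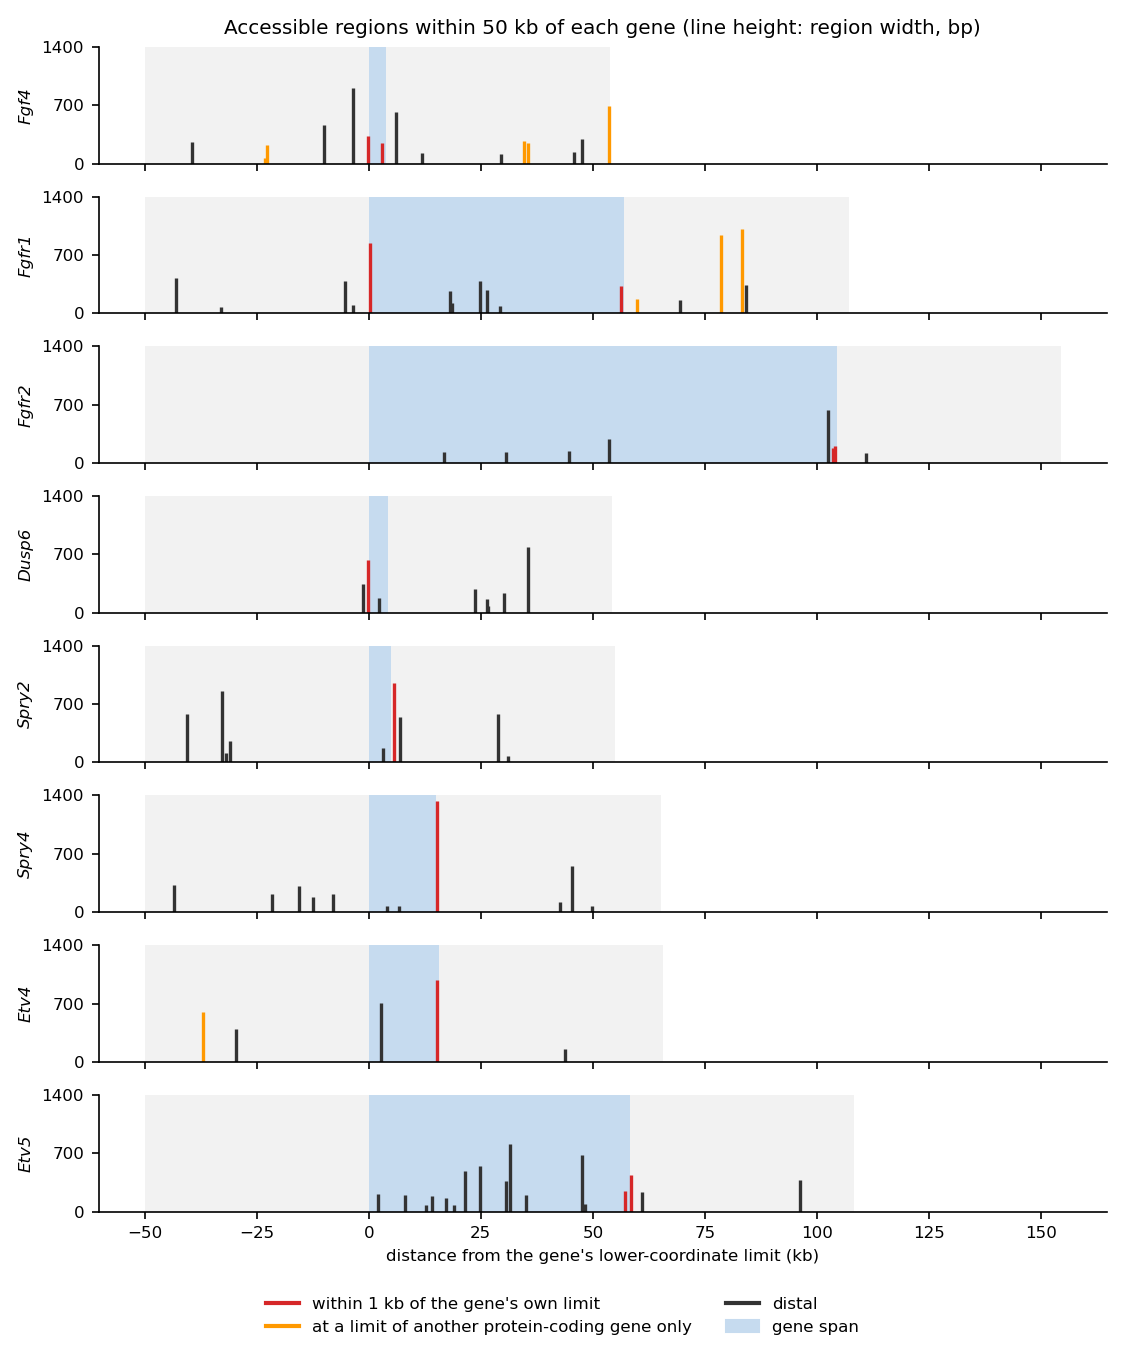
Accessible regions in the window of each gene, as lines at the middle of each region, against distance from the lower-coordinate limit of the gene in kb, with line height as the width of the region in bp. Blue marks the gene and grey the 50 kb flanks. Etv5 has 15 of its 17 regions inside the gene and Fgfr2 7 of its 8, while the other genes have more outside than inside. Fgfr2 and Etv5 each have 1 empty flank.

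In number of regions, the 2 ETS factor genes stood at opposite ends of the list. Per 100 kb of window Etv4 had 4.33 and Etv5 10.7, both between Fgfr2 at 3.91 and Fgf4 at 14.4. Etv4, on chromosome 11 at 101769747 to 101785310, had 5 regions, the fewest of the 8, and 66.4% of protein-coding genes had as many. The 2 in the gene were wide, with 979 bp over its upper limit, at 101784494 to 101785472, and 705 bp 2.38 kb from its lower limit. The others were 595, 389 and 152 bp. That of 595 bp was over the promoter window of Dhx8, an RNA helicase gene, and with regions kept for their nearest gene only Etv4 had 3. Within 25 kb of the gene there were 2, both inside it.

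Etv5, on chromosome 16 at 22381313 to 22439570, had 17 regions, the most of the 8, and 15 of them touched the gene. As many in a gene were found for 0.991% of all protein-coding genes and for 0.302% of the 1656 genes within 20% of its length of 58.3 kb, whose median was 2. Fgfr1 is of nearly the same length and had 7. Besides the regions at its 2 starts, of 436 and 241 bp, 13 regions lay along the gene from 1.93 kb above its lower limit up to the starts. The widest were 808 bp at 22412417 to 22413224, 680 bp at 22428605 to 22429284, and 543 and 481 bp farther toward the far end. The widest region of the gene was thus 26.3 kb from the outer start and not at a start. The downstream flank held no region, and a stretch of 51.9 kb from the window edge into the gene was empty. The upstream flank held 2, of which the one at 37.8 kb was inside Dgkg. Only 3 regions of Etv5 were narrower than 150 bp.

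Across the 8 genes, regions away from gene limits made up most of the set. Of the 89 regions, 68 (76.4%) were distal, meaning not within 1 kb of a limit of any protein-coding gene, 12 (13.5%) lay at a limit of the gene itself and 9 (10.1%) at a limit of another gene only. In the whole list 20.5% of regions lay at a limit of a protein-coding gene. Distal regions thus made up most of the whole list as well, and their large share was not particular to the 8 genes. Regions at the genes' own limits were the wider ones, with a median of 385.5 bp against 225 bp for distal regions. The 9 regions at a limit of another gene only had a median of 268 bp. Over the whole list, regions at a limit of any protein-coding gene had a median of 525 bp and distal regions 246 bp. The classes are not quite alike, but the difference at the 8 genes was of the same direction. In 3 of the 8 genes, Spry2, Spry4 and Etv4, the widest region in the window lay at the gene's own limit, against 25.3% of all protein-coding genes. At the other 5 it lay upstream (Fgf4), at a neighbour (Fgfr1), inside the gene (Fgfr2 and Etv5) or far downstream (Dusp6).

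A region inside the gene and away from both limits was present in 7 of the 8, all except Fgf4, against 43.2% of all protein-coding genes. At least 1 flank of 50 kb was empty at 2 of the 8, Fgfr2 and Etv5, in both cases the downstream one, against 32.1% of all genes. The number of distal regions ranged from 3 at Etv4 to 15 at Etv5, with a median of 8, against 4 over all genes. Distal counts were 11 at Fgfr1, 10 at Spry4, 8 at Fgf4 and Spry2, 7 at Dusp6 and 6 at Fgfr2. At the limit of 50 kb, the farthest region inside it was that of Fgf4 at 49.5 kb, of 690 bp, and the nearest one outside was at 52.7 kb from Fgfr1, of 628 bp.

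The rest of the pathway was described with a list of 72 genes. Spry3 was left out, since its listed position is below 3 Mb on chromosome X, where the first region lies at 3.96 Mb. Of the other 71 genes, 62 (87.3%) had a region within 1 kb of a limit, beside the 62.0% of all genes. The median density was 7.3 regions per 100 kb of window, and 49 of the 71 lay above the median of all genes. All 13 adaptor and RAS genes and all 10 kinase genes had a region at a limit. Grb2 and Shc1, adaptors of receptor tyrosine kinases, had 15 regions each in their windows, and the kinase gene Map2k1, which encodes MEK1, had 13. The ligands were more divided, with a region at a limit in 13 of 17. Fgf15 had the most regions, 17, of which 12 were also in the window of Fgf4 and 7 in that of Fgf3. Fgf1 and Fgf21 followed with 15 each. Fgf21 had none of them at a limit, and neither had Fgf6, Fgf7 and Fgf16, with 3, 2 and 2 regions in their windows. Among receptors and co-receptors 3 of 5 had one. Fgfrl1, a receptor without a kinase domain, and Fgfr4 had 10 regions each, but Fgfr4 had none at a limit or in the gene.

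The other 11 inhibitor genes all had a region at a limit. Spred2, a Sprouty-related inhibitor, had 20 regions with 11 in the gene, and Il17rd, a membrane inhibitor of FGF receptors, had 15. Spry1, a paralogue of Spry2 and Spry4, had 12. Of the transcription factors and targets 12 of 15 had a region at a limit, and Ets1, Elk3 and Srf had none. The neighbours Cic, a repressor that ERK signalling relieves, and Erf, an ETS repressor controlled by ERK, had 21 and 16 regions and shared 15 of them. Etv1, which forms the PEA3 family of ETS factors with Etv4 and Etv5, had 8 regions with 3 in the gene, against 2 in Etv4 and 15 in Etv5.

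**Figure D4:**
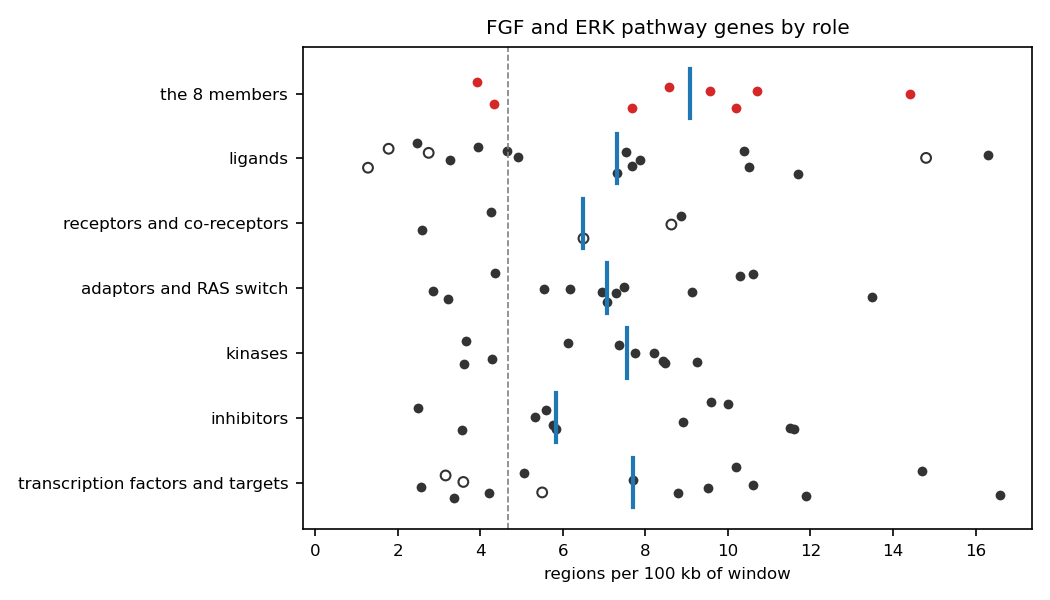
Regions per 100 kb of window for the 8 genes (red) and 71 further pathway genes by role, 1 point per gene, with blue bars as group medians and the dashed line as the median of all protein-coding genes, 4.68. Open circles have no region within 1 kb of a limit; vertical scatter only separates points.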

How the data were processed

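The authors deposited 1 list of accessible regions for all 8 libraries, with chromosome, start and end in base pairs and no other value. Per the submitters' processing notes, cutadapt, Bowtie2, Picard, SAMtools, bedtools, MACS2 2.1.1 and the build GRCm38 (mm10) were used. The sources used here give no parameters, no shift for Tn5 insertion, no blacklist and no rule for merging libraries, so the reach of a region and the smallest width listed, 73 bp, may depend on them. The labels give RNA as the molecule, and their titles and protocol, which describe ATAC-seq, were followed.

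Starts were converted to count from 1. Gene limits came from RefSeq (GRCm38.p6), and promoter windows with strand and sequence from a RefSeq table that held 5 of the 8 genes; for Fgfr1, Spry4 and Etv4 limits are named lower and upper by coordinate. An overlap of 1 bp counted, and distances are between the nearer positions. Counts were made in Python 3.11.15 with pandas 2.3.3, and the overlap code was tested on simulated data. The 8 genes and the list of 72 were chosen with earlier results of these data known. Named pathway genes were the 2 with most regions in each role and any with none, of which 1 kinase gene is not reported here; Fgf21, Spry1, Fgfr4's gene body, Etv1, Ets1, Elk3, Srf the ligands without a region at a limit and neighbours other than Nsd3 and Arhgap26 were added after their values were seen. No test was made: the list has no value per library, and neighbouring genes share regions.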

Additional observations from a re-analysis of the deposited data

How the results depend on the processing

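No paired analysis was possible because regions carry no values of single libraries, and no replicate could be left out. The alternatives were regions of at least 150 bp only, an overlap of at least 50% of the region, windows of 25 and 100 kb, regions kept for the nearest protein-coding gene only, and gene ends of 500 bp and 2 kb. All 8 genes had a region at a limit with wider regions only, with the stricter overlap, with both other end distances and, chosen after seeing the data, with regions kept for the nearest gene and ties kept. Without regions at the limit of another gene, also chosen later, 7 of 8 had one, Spry4 being the exception. The count of pathway genes stayed between 60 and 65 of 71. Without the 108 protein-coding genes listed below 3 Mb on chromosomes other than Y, where no region lies, a setting chosen later, 62.3% of the others had a region at a limit and the median density was 4.7. The total of 89 regions ranged from 63 (25 kb) to 120 (100 kb). The median of distal regions per gene rose from 8 to 12.5 with windows of 100 kb. Single windows moved by more than 1.5 times at Fgf4 (8 regions at 25 kb, 23 at 100 kb, 5 as nearest gene), Etv4 (2, 9 and 3 under the same settings), Spry2 (4 at 25 kb), Spry4 (7 at 25 kb and 7 with wider regions) and Fgfr2 (4 with wider regions). A requirement that regions cover at least 150 of the 300 bp of a promoter window, chosen after seeing the data, left 3 of 5 genes, without Spry2, beside 51.5% of protein-coding genes. Depth is unknown, so an empty stretch shows only that no region was listed there.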
